A study of Mus musculus with 6 samples.

Results

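The genes described here are 10 genes of interferon-induced protein modification, taken by name from a table of FPKM values (read fragments scaled to transcript length and library size) that listed 18268 genes. Their symbols are Isg15, Uba7, Ube2l6, Herc6 and Usp18, which form the ISG15 conjugation cycle, and Parp9, Dtx3l, Parp14, Parp10 and Parp12, which belong to ADP-ribosylation. All 10 were in the table. RNA had been sequenced from whole colorectal tissue of 6 adult male C57BL/6 mice, aged 8 to 10 weeks per the study's methods. Colitis was induced in every mouse with dextran sulfate sodium (DSS), which damages the intestinal epithelium, at 2.5% in drinking water for 7 days. For 6 of these days, 3 mice received berberine (BBR), a plant alkaloid, at 100 mg/kg by gavage, and the other 3 received sulfasalazine (SASP), an aminosalicylate prodrug prescribed for colitis, at 200 mg/kg. No healthy or untreated colitis mice were analysed here, so each difference is one between the drugs and does not tell which of them moved a gene. Sex, age and doses are those of the general colitis protocol, whose account of the RNA samples does not name the SASP mice. Each sample is called a mouse here, but the labels do not state that the samples came from separate animals, so p-values measure the spread between samples. Replicate numbers only name a sample.

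ISG15 is a small ubiquitin-like protein. After interferon exposure it is joined to lysines of other proteins by a relay of enzymes, with Uba7 as the activating enzyme (E1), Ube2l6 as the conjugating enzyme (E2) and Herc6 as the main ligase (E3) of mice. Usp18 cleaves ISG15 off again and also binds a subunit of the type I interferon receptor, where it dampens signalling. PARP enzymes transfer ADP-ribose from NAD+ to proteins. Parp9 works in a complex with the ubiquitin ligase Dtx3l, Parp14 carries macrodomains that bind ADP-ribose, and Parp10 and Parp12 attach single ADP-ribose units. Interferons raise these genes through the STAT and IRF factors, which bind the interferon-stimulated response element (ISRE) and the gamma-activated sequence (GAS).

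Promoters are shown because the members moved together and because such sequences can be searched for ISRE and GAS letters. RefSeq (GRCm38.p6) gave a promoter for 6 of the 10 members, Isg15, Uba7, Ube2l6, Herc6, Dtx3l and Parp12. Usp18, Parp9, Parp14 and Parp10 had no entry. The 250 bases before the annotated start were searched on both strands for an ISRE core, GAAA followed after any 2 bases by a further GAAA, and for the GAS motif TTCNNNGAA. Of the 6 promoters, that of Isg15 held the ISRE core, as 3 overlapping matches on the strand of the gene, which began 78, 72 and 66 bases before the start. The same core was present in 2.98% of all 32851 promoter entries of this length. The GAS motif was in none of the 6 promoters and in 7.02% of all entries. The Isg15 promoter carries its ISRE run in capitals, and that of Dtx3l, which holds neither motif, is given for comparison because Dtx3l had the smallest adjusted p of the members.
Isg15, chr4:156200819-156201068, minus strand: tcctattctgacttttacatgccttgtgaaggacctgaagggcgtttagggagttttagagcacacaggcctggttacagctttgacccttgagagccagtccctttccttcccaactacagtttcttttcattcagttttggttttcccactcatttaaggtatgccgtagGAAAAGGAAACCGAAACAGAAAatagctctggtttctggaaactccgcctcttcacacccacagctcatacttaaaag
Dtx3l, chr16:35939028-35939277, minus strand: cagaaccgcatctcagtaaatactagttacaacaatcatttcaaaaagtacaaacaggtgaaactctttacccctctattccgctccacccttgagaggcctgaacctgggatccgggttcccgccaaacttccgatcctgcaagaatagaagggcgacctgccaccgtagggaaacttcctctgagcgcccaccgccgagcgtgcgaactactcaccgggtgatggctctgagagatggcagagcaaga

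The libraries had similar estimated depths, 16.4 to 16.8 M reads in BBR and 16.8 to 18.2 M reads in SASP mice, and 11518 to 12307 genes reached 1 FPKM. Across genes, log2 values of BBR mouse 3 correlated with those of BBR mice 1 and 2 at 0.953 and 0.949, against 0.987 between the latter. BBR mouse 3 therefore stood apart, and without it all 10 members still passed the threshold of the test described next, with log2 fold changes of -3.54 to -0.93. In that fit 4018 of 11878 tested genes passed, against 1069 of 12072 with all mice, and 11.5% of tested genes were lower in BBR.

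All 10 genes were lower in colitis mice receiving BBR than in colitis mice receiving SASP. Fold changes were fitted with limma on log2(FPKM + 1), a scale that compresses the changes of weakly expressed genes, and p-values were adjusted over all 12072 tested genes. At an adjusted p under 0.05, 10 of 10 members were lower in BBR, where 5.04% of all tested genes were lower, 3.82% were higher and 8.86% differed in either direction. For each of the 10 the BBR values lay wholly below the SASP values, as they did for 16.6% of all tested genes, and 37.9% did not overlap in either direction. All 10 also had a log2 fold change of -1 or lower, against 3.4% of all tested genes. The median log2 fold change of the members was -2.17, at -2.52 for the 5 conjugation genes and -1.88 for the 5 genes of ADP-ribosylation, against 0.10 over all tested genes. In whole tissue, a smaller number of cells that express a gene and less RNA per cell cannot be told apart. Of the members, 9 reached 1 FPKM in all 6 mice, whereas Usp18 did so in 1 BBR mouse and 3 SASP mice, and so was tested because of its SASP values.

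Isg15 (Gene ID 100038882) encodes the modifier itself and had the largest fold change of the members on the log2(FPKM + 1) scale. Its level was 12.57, 5.02 and 12.35 FPKM in BBR mice 1, 2 and 3, and 143.17, 64.87 and 121.89 FPKM in SASP mice 1, 2 and 3. The lowest SASP mouse was 5.16 times above the highest BBR mouse, and mouse 2 of each group was the lowest. The means were 9.98 ± 4.30 and 110 ± 40.5 FPKM (SD, n = 3 each), and the fitted difference was -3.35 on the log2 scale (SE 0.40, limma adjusted p = 0.00891). Isg15 stood above 28.0% to 59.3% of tested genes in the BBR mice and above 89.9% to 95.4% in the SASP mice. The values correspond to about 62 to 158 reads in BBR and about 892 to 1921 reads in SASP mice, by an approximate estimate of depth.

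The enzymes that load ISG15 were lower as well, by different amounts. Uba7 (74153), the E1, was at 22.02, 22.06 and 18.03 FPKM with BBR and 61.80, 47.19 and 67.05 FPKM with SASP, a log2 fold change of -1.45 (SE 0.16, adjusted p = 0.00714). Ube2l6 (56791), the E2, was at 11.01, 9.23 and 11.91 FPKM with BBR and 74.34, 31.86 and 64.54 FPKM with SASP, a change of -2.23 (SE 0.30, adjusted p = 0.0132). Herc6 (67138), the E3, was at 2.61, 2.18 and 3.08 FPKM with BBR and 28.32, 9.39 and 28.19 FPKM with SASP, a change of -2.52 (SE 0.40, adjusted p = 0.0186). Within the SASP group, mouse 2 was below the other mice for all of these genes, and Herc6 differed 3.02-fold between the highest and the lowest SASP mouse. In BBR the same gene differed 1.41-fold. Of the Herc6 transcript, 23.8% of 50-base windows also occur in the annotated gene Gm45193. Its level is therefore less certain than that of the others. Ube2l6 shared 3.44% of windows with other genes on the same strand and 9.33% on the opposite strand, and Uba7 shared 4.17% on the same strand.

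Usp18 (24110), the ISG15 protease, had the lowest mean of the members in both groups, although in SASP mouse 1 it was above Herc6 and Parp10. It was at 1.35, 0.73 and 0.99 FPKM with BBR and 30.34, 7.23 and 15.58 FPKM with SASP. The SASP values spread 4.2-fold, the widest range of any member in that group, and still did not overlap with BBR. The log2 fold change was -3.02 (SE 0.45, limma adjusted p = 0.0163). Because the BBR values are near the pseudocount of 1, this change is understated, and it was -3.79 with a pseudocount of 0.1. On the plain FPKM scale the SASP mean of Usp18 was 17.3 times the BBR mean, against 11.0 times for Isg15. Usp18 rested on about 21 to 40 reads in the BBR mice.

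**Figure D1:**
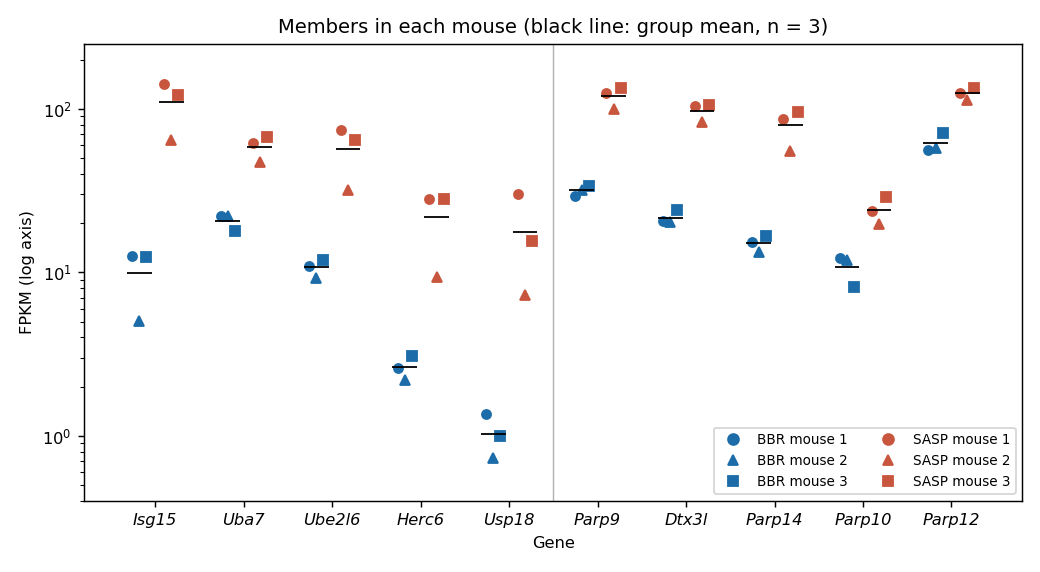
FPKM of the 10 members in each mouse on a log axis, with BBR mice in blue, SASP mice in red, a marker shape per mouse and a black line at each group mean (n = 3). The groups do not overlap for any member, and SASP mouse 2 (red triangle) is the lowest SASP mouse in all 10 genes.

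Parp9 (80285) and its partner Dtx3l (209200) had the smallest adjusted p-values of the members. Parp9 was at 29.49, 31.97 and 33.84 FPKM with BBR and 125.77, 99.86 and 135.23 FPKM with SASP, a log2 fold change of -1.88 (SE 0.14, adjusted p = 0.00171). Dtx3l was at 20.55, 20.36 and 24.07 FPKM with BBR and 103.97, 83.51 and 105.88 FPKM with SASP, a change of -2.12 (SE 0.13, adjusted p = 0.000723). Within each group these genes differed at most 1.35-fold and 1.27-fold between mice. Their annotated transcripts overlap on opposite strands. Windows of 50 bases, the read length, were shared with the partner for 9.09% of the Parp9 transcript. A library that does not keep the strand cannot assign reads from that stretch. Of the Dtx3l windows, 8.65% were shared on the opposite strand and 1.29% on the same strand, with Parp9 and many other genes.

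Parp14 (547253), like Parp9 a macrodomain PARP, changed by -2.28 (SE 0.21, limma adjusted p = 0.00443), the largest log2 fold change among the PARP genes. It was at 15.45, 13.30 and 16.81 FPKM with BBR and 86.87, 55.14 and 96.20 FPKM with SASP. The lowest SASP mouse was 3.28 times above the highest BBR mouse. Parp14, Dtx3l and Parp9 are consecutive protein-coding genes on chromosome 16 in RefSeq. The gene on the Parp14 side, Hspbap1, was at 2.34 to 2.67 FPKM in BBR and 2.11 to 2.81 FPKM in SASP mice (log2 fold change 0.03, adjusted p = 0.881). The gene on the Parp9 side, Kpna1, a nuclear import receptor, had 0.26 (adjusted p = 0.253). Within 2 protein-coding genes of any member, 19 tested genes that are no members were found, of which 2 were lower and 1 was higher past the threshold. These were Traip next to Uba7 (-1.10, adjusted p = 0.0132), Timm10 near Ube2l6 (-0.69, adjusted p = 0.0354) and Grina next to Parp10 (0.41, adjusted p = 0.0491). Traip was below 1 FPKM in every BBR mouse, and so was tested because of its SASP values. The neighbours were looked up after the values of the members had been seen.

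Parp10 (671535) and Parp12 (243771), which attach single ADP-ribose units, had the smallest log2 fold changes. Parp10 was at 12.22, 11.95 and 8.11 FPKM with BBR and 23.74, 19.91 and 28.88 FPKM with SASP, a change of -1.10 (SE 0.20, adjusted p = 0.0246). Parp12 had the highest mean of the members in both groups, although in SASP it was above Parp9 in 1 of 3 mice and below Isg15 in SASP mouse 1. It was at 55.80, 58.02 and 71.54 FPKM with BBR and 125.60, 113.82 and 134.42 FPKM with SASP, a change of -1.01 (SE 0.13, adjusted p = 0.0109). The lowest SASP mouse was 1.63 and 1.59 times above the highest BBR mouse for Parp10 and Parp12.

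The order of levels differed between the groups. In BBR the mean FPKM declined from Parp12 (61.8) over Parp9 (31.8), Dtx3l (21.7), Uba7 (20.7), Parp14 (15.2), Parp10 (10.8), Ube2l6 (10.7) and Isg15 (9.98) to Herc6 (2.62) and Usp18 (1.02). Neighbours whose values overlapped were Dtx3l and Uba7, Parp10 and Ube2l6, and Ube2l6 and Isg15. In SASP the order was Parp12 (125), Parp9 (120), Isg15 (110), Dtx3l (97.8), Parp14 (79.4), Uba7 (58.7), Ube2l6 (56.9), Parp10 (24.2), Herc6 (22.0) and Usp18 (17.7). Here the only neighbours without overlap were Ube2l6 and Parp10. Isg15 thus moved from place 8 by mean level in BBR to place 3 in SASP, although its SASP values overlapped with those of Parp9 and Dtx3l.

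To compare the sizes of change within each mouse, the log2 ratio of (FPKM + 1) was taken for 4 pairs of members and tested with a two-sided exact permutation test, which cannot give a p below 0.10 for 3 against 3 mice. Parp14 relative to Parp10 was at 0.32, 0.14 and 0.97 in BBR and at 1.83, 1.42 and 1.70 in SASP mice, a difference of -1.18 (exact p = 0.10, 0.133 after adjustment over the 4 pairs). Ube2l6 relative to Uba7 was lower in BBR by a difference of -0.78, and Parp9 relative to Dtx3l was higher in BBR by 0.24, each without overlap and with the same exact p of 0.10 and adjusted p of 0.133. None of these can pass the threshold in this design. Parp9 stayed above Dtx3l in all 6 mice, with FPKM ratios of 1.41 to 1.57 in BBR and 1.2 to 1.28 in SASP mice. Isg15 relative to Usp18 overlapped between the groups, with log2 ratios of 2.53, 1.80 and 2.75 in BBR and 2.2, 3.0 and 2.89 in SASP mice (difference -0.34, exact p = 0.50). That difference took the opposite sign, 0.31, with a pseudocount of 0.1, so the data do not rank Isg15 against Usp18.

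**Figure D2:**
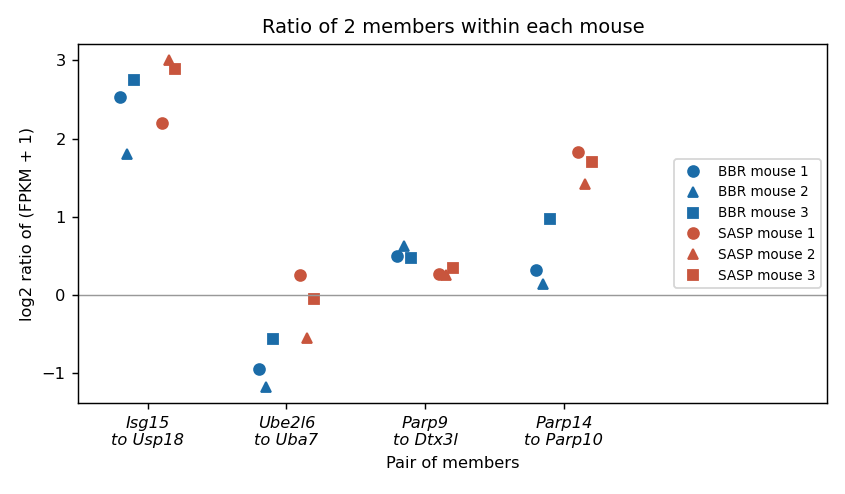
Log2 ratio of (FPKM + 1) between 2 members within each mouse, with BBR mice in blue and SASP mice in red and a marker shape per mouse. The ratio of Parp14 to Parp10 does not overlap between the groups, whose means are 0.48 and 1.65, while that of Isg15 to Usp18 overlaps.

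Within the SASP group the members varied together. SASP mouse 2 had the lowest value of the group for 10 of 10 members, whereas it was lowest for 25.4% of all tested genes. SASP mouse 1 was highest for 4 members and SASP mouse 3 for the other 6. In BBR, mouse 2 was lowest for 6 members, against 16.2% of all tested genes. These counts describe single mice and the members share each library, so they carry no test.

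Other PARP genes moved in both directions. Of 11 tested relatives, 2 were lower and 1 was higher in BBR past the threshold, and their median log2 fold change was -0.27. Parp11 (3.35, 3.98 and 3.54 FPKM with BBR, 8.71, 6.37 and 8.69 FPKM with SASP) changed by -0.94 (SE 0.15, adjusted p = 0.0199) and Parp3, which takes part in DNA break repair, by -0.69 (SE 0.16, adjusted p = 0.0483). Parp16, a PARP of the endoplasmic reticulum membrane, changed by 0.49 (SE 0.11, adjusted p = 0.0453). All of these calls were lost on leaving out BBR mouse 1, SASP mouse 1 or SASP mouse 3, and those of Parp3 and Parp16 also without BBR mouse 2 or SASP mouse 2. Zc3hav1, the antiviral zinc finger protein ZAP, had a change of -0.69 with an adjusted p of 0.0529. Tnks2, a tankyrase, had 0.12 (adjusted p = 0.529). None of the 6 genes that remove ADP-ribose passed the threshold in limma, with changes from -0.14 to 0.31, and 0 of them had an unadjusted p under 0.05. Oard1 and Adprh, the most abundant, had -0.14 and -0.03 (adjusted p = 0.341 and 0.885).

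**Figure D3:**
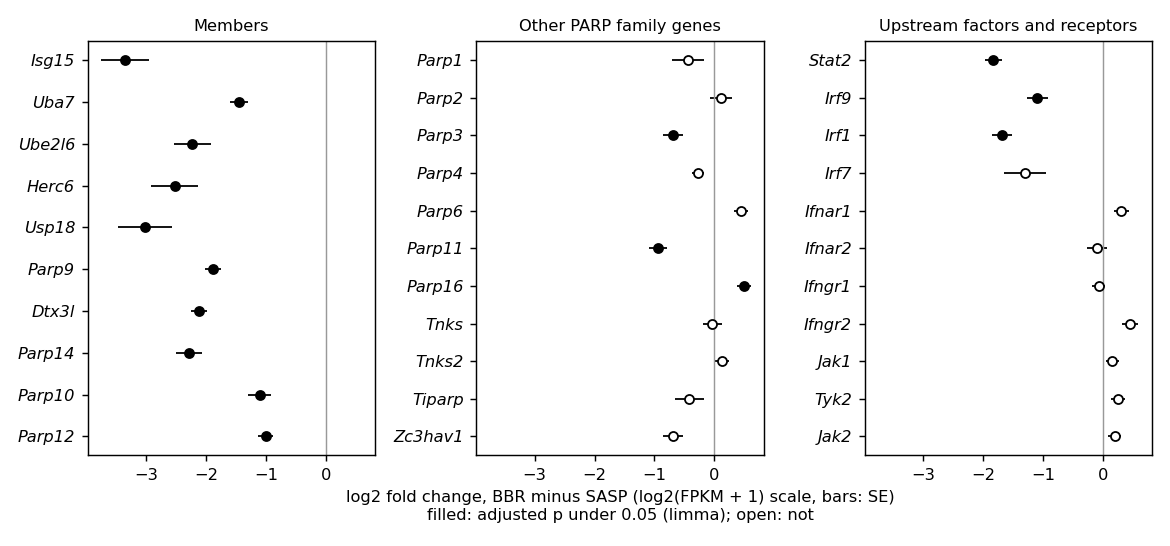
Log2 fold change (BBR minus SASP) with its SE for the members, for the tested other PARP genes and for interferon receptor, JAK, STAT and IRF genes, where filled points have a limma adjusted p under 0.05. All 10 members lie at or below -1.01, while the other PARP genes lie between -0.94 and 0.49 and the 4 receptor genes between -0.10 and 0.45.

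Other ubiquitin and ubiquitin-like enzymes were compared as relatives of the conjugation genes. Of 21 tested genes of the NEDD8, SUMO, UFM1, URM1, FAT10 and autophagy modifier systems, 2 were lower past the threshold and 0 were higher, with a median of -0.16. The larger change was that of Ubd, which encodes the interferon-inducible modifier FAT10. It was at 0.66, 2.02 and 3.38 FPKM with BBR and 101.24, 14.70 and 60.75 FPKM with SASP (log2 fold change -4.05, SE 0.69, adjusted p = 0.0220), and SASP mouse 2 was again the lowest of its group. Ubd passed in 2 of 6 leave-out fits, those without BBR mouse 3 and without SASP mouse 2. Sae1, part of the SUMO E1, changed by -0.67 (adjusted p = 0.0473) and passed in 1 leave-out fit, that without BBR mouse 3. Sumo2 and Fau had -0.13 and 0.22 (adjusted p = 0.450 and 0.336). Among 10 ubiquitin E1 and E2 genes in limma, 0 passed at an adjusted p under 0.05 and 5 had an unadjusted p under 0.05, with log2 fold changes from -0.37 to 0.71 over the list. Uba1, the main ubiquitin E1, had -0.13 (adjusted p = 0.348) and Ube2d3 had -0.29 (adjusted p = 0.0799). Ube2l3, the closest relative of Ube2l6, was at 57.05 to 60.83 FPKM in BBR and 57.07 to 65.01 FPKM in SASP mice (-0.01, adjusted p = 0.964), and was singled out after its values had been seen.

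Other ligases and proteases of the families did not pass the threshold. Of 7 tested genes that have been linked to ISG15 ligation or removal, 0 passed in limma and 2 had an unadjusted p under 0.05, and Trim25 and Arih1 had changes of -0.07 and -0.01 (adjusted p = 0.776 and 0.935). Of 7 other Deltex and Herc genes, 0 passed and 1 had an unadjusted p under 0.05. This was Dtx3, at 10.36, 16.70 and 15.14 FPKM with BBR and 3.89, 8.07 and 7.45 FPKM with SASP (log2 fold change 1.04, adjusted p = 0.0614), while Herc4 had -0.14 (adjusted p = 0.436).

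Stat2, Irf1 and Irf9 were lower in BBR, and the other tested genes of the interferon receptor list did not pass the threshold. Of 11 tested genes of interferon receptors, JAK kinases, STAT and IRF factors, 3 were lower and 0 higher past the threshold, with a median of -0.07. Stat2, part of the ISGF3 complex that binds the ISRE, was at 11.46, 10.30 and 11.25 FPKM with BBR and 47.31, 34.20 and 44.43 FPKM with SASP, and changed by -1.83 (adjusted p = 0.00187). Irf1, a factor that binds the ISRE on its own, changed by -1.68 (adjusted p = 0.00478). Stat2 and Irf1 kept their calls in each of the 6 fits that left out 1 mouse. Irf9, the DNA-binding part of ISGF3, changed by -1.09 (adjusted p = 0.0186) and passed in 2 of these fits, those without BBR mouse 2 and without BBR mouse 3. Irf7 was at 78.36, 40.52 and 53.25 FPKM with BBR and 189.11, 84.16 and 164.64 FPKM with SASP (-1.30, adjusted p = 0.0621). Ifngr1, the ligand-binding chain of the interferon gamma receptor, had -0.07 (adjusted p = 0.674). Of 10 listed interferon genes Ifng was in the table, at 0 in all 3 BBR mice and at 1.19, 0.30 and 0.21 FPKM in SASP mice, below the filter. The other 9 had no row in the table, so they could not be analysed.

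Outside the lists, the tested genes whose profile over the 6 mice was most like the mean profile of the members included Fas, Pold3, Cmpk2 and Psmb9, with Pearson correlations of 0.998 to 0.999. Psmb9, an immunoproteasome subunit, was at 19.36, 17.78 and 16.88 FPKM with BBR and 216.53, 115.41 and 206.69 FPKM with SASP. Fas, a death receptor, was at 9.48 to 10.39 and 21.32 to 31.93 FPKM. The 6 points share the split into groups, and 349 tested genes that are no members, those named included, had a correlation above 0.95.

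Cell type markers moved with the groups in part. The summed level of the members was 175 to 201 FPKM in BBR and 533 to 804 FPKM in SASP mice. The 10 pan-leukocyte markers summed to 25.9 to 43.7 FPKM in BBR and to 42.0 to 92.0 FPKM in SASP mice, and in limma 0 of 9 tested passed the threshold, with 6 at an unadjusted p under 0.05. SASP mouse 2, lowest for every member, was also the SASP mouse with the lowest leukocyte sum, below BBR mouse 2. Macrophage markers overlapped, at 56.3 to 97.1 and 79.7 to 89.8 FPKM, with 1 of 10 lower. That marker, Fcgr1, was below 1 FPKM in every BBR mouse, and so was tested because of its SASP values. T cell markers also overlapped, at 4.65 to 7.10 and 3.75 to 8.42 FPKM. Of the 9 T cell markers in the table only 2 reached the filter and were tested, and none passed, so these sums rest on low values. Granulocyte markers summed to 192 to 573 and 540 to 569 FPKM, with 2 of 6 lower. Ly6g made up most of that sum, and the other 8 markers, summed without it after the values had been seen, came to 2.65, 2.38 and 20.95 FPKM with BBR and 240.01, 52.87 and 122.78 FPKM with SASP. These sums did not overlap, and SASP mouse 2 was the lowest SASP mouse. Ltf was the largest part of each SASP sum and set that order. S100a8, S100a9 (6.91, 7.19 and 10.66 FPKM with SASP) and Csf3r were instead lowest in SASP mouse 1 of that group. Cxcr2, Mpo, Camp and Retnlg had higher means in BBR, at low levels. Mpo, Camp and Retnlg stayed below 1 FPKM in every mouse and were not tested. Cxcr2, with means of 1.35 FPKM in BBR and 1.15 FPKM in SASP, did not pass (limma adjusted p = 0.693). The markers called lower were S100a8 (0, 0 and 6.19 FPKM with BBR, 18.53, 20.64 and 23.14 FPKM with SASP) and Ltf (0.48, 0.20 and 5.13 FPKM with BBR, 211.63, 21.72 and 85.87 FPKM with SASP). B and plasma cell markers summed to 78.2 to 192 and 61.7 to 104 FPKM, with 1 of 5 lower and 1 higher. The lower one, Cd79b, was below 1 FPKM in every BBR mouse, and so was tested because of its SASP values. Elane, a listed granulocyte marker, and Trac, a listed T cell marker, were not in the table. No marker of these lists that was in the table was at 0 in all 6 mice.

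The 12 colon epithelium markers, which check the labelled tissue, summed to 9970 to 12786 FPKM in BBR and 10073 to 10298 FPKM in SASP mice, with Epcam at 833 FPKM or more in every mouse. Of the 12, Cdx2 was higher in BBR (1.5, adjusted p = 0.0422) and Vil1 was lower (-0.55, adjusted p = 0.0327). Car1 and Krt20 had 2.48 and -1.18 (adjusted p = 0.0950 and 0.0613). Smooth muscle markers went the other way from the members, at 2889 to 6811 FPKM in BBR and 758 to 2323 FPKM in SASP mice, with 0 of 11 past the threshold in limma and 8 at an unadjusted p under 0.05. Their sums were 758, 2323 and 1726 FPKM in SASP mice 1, 2 and 3, so SASP mouse 2 was the highest of its group. Stromal markers, at 360 to 482 and 171 to 281 FPKM, had 4 of 10 higher, and endothelial markers, at 22.5 to 37.4 and 11.7 to 16.7 FPKM, had 1 of 7 higher. The part of these cell types in the result was not tested. The share of all tested genes at an unadjusted p under 0.05 was not taken, so such counts, here and above, lack a background. When the pan-leukocyte score entered the model as a covariate, 1 of 10 members passed, Dtx3l (-2.02, adjusted p = 0.0417), where 0.157% of all tested genes did. With the smooth muscle score it was again Dtx3l alone (-2.10, adjusted p = 0.0292), where 0.149% did. The log2 fold changes lay between -3.17 and -0.79 in these fits, which have 3 residual degrees of freedom. With the leukocyte score those of Usp18, Herc6 and Ube2l6 were -2.04, -1.80 and -1.67, against -3.02, -2.52 and -2.23 without a score. With the smooth muscle score they were -2.01, -2.02 and -1.78. All other members but Parp12 were also closer to 0 with either score. Parp12 had -1.02 with the leukocyte score and -1.12 with the smooth muscle score, against -1.01.

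**Figure D4:**
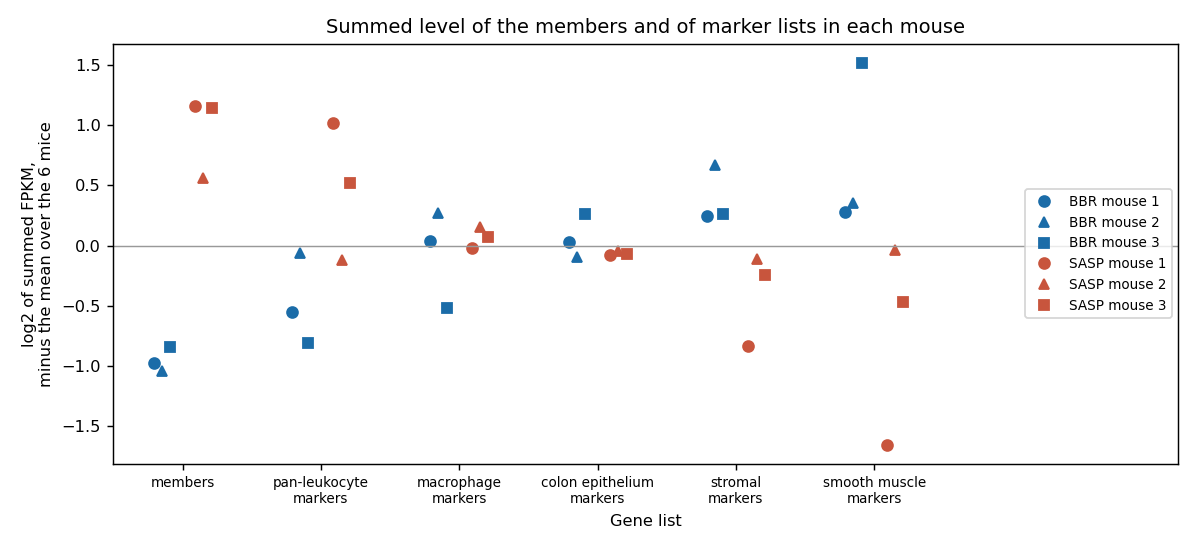
Log2 of the summed FPKM of each list in each mouse, minus the mean over the 6 mice, with BBR mice in blue and SASP mice in red. The members separate the groups, the leukocyte, macrophage and epithelium sums overlap, and the stromal and smooth muscle sums are higher in BBR.

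Which members passed the threshold depended on the mice in the fit, as did the number of genes called overall. All 10 passed without BBR mouse 3, as given above, and all 10 without SASP mouse 2, where 405 genes were called and 2.13% of tested genes were lower. Without BBR mouse 2 there were 8, with Herc6 and Parp10 lost, where 371 genes were called and 2.55% were lower. Without BBR mouse 1 there were 5, Isg15, Uba7, Parp9, Parp14 and Dtx3l, where 131 genes were called and 0.915% were lower. Without SASP mouse 1 there were 4, Usp18, Parp9, Parp14 and Dtx3l, where 59 genes were called and 0.418% were lower. Without SASP mouse 3 there were also 4, Uba7, Parp9, Parp14 and Dtx3l, where 51 genes were called and 0.378% were lower. Parp9, Parp14 and Dtx3l passed in each of the 6 fits that left out a mouse.

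**Figure D5:**
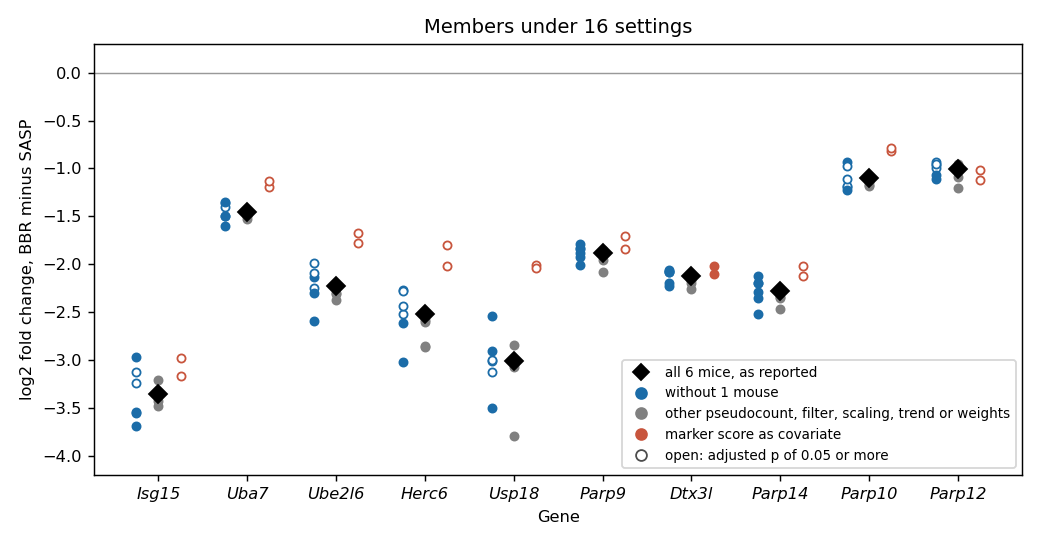
Log2 fold change (BBR minus SASP) of each member under 16 settings, where the diamond is the fit with all mice, blue points leave out 1 mouse, grey points use another pseudocount, filter, scaling, trend or weights, and red points add a marker score. Every value is below 0, and open points, with an adjusted p of 0.05 or more, are fewest for Dtx3l, which has 0 of them.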

How the data were processed

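RNA of colorectal tissue from 3 BBR and 3 SASP colitis mice was analysed as FPKM values per gene, which the authors deposited in 1 table. Per the submitters' processing notes, Bowtie2 2.2.5 and RSEM 1.2.12 were used with build mm9, and the annotation is not given in the sources used here. The labels name an Illumina TruSeq kit, whereas the methods describe rRNA depletion and nanoball sequencing, and strand is not stated.

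Genes with at least 1 FPKM in at least 3 of the 6 mice were tested with limma 3.58.1 (R 4.3.3) on log2(FPKM + 1), with a variance trend, two-sided, and Benjamini-Hochberg adjustment at 0.05. The model was tested on simulated data. Samples are the replicates, grouped by the treatment label. Counts were not used here, so depth was estimated from genes detected in a single sample, with transcripts under 1500 bases. Each such FPKM value was assumed to stand for a single read, and the median over 31 to 56 genes per sample was taken. Read numbers therefore rest on that assumption, are approximate and cover counting only. Windows of 50 bases were compared between GENCODE M21 transcripts of GRCm38, a build other than mm9, so no gene coordinates are carried over. Promoters are RefSeq sequences.

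All 10 members were named. From each related list up to 3 genes with the smallest p past the threshold and up to 2 most abundant genes not past it were named, and the 5 genes most like the members in profile. Some genes that these rules select are not reported here, and the counts of the interferon receptor and factor list leave them out. Members and lists were chosen with earlier results of these data known. Alternatives were another pseudocount, filters, scalings, no trend, array weights, marker scores as covariates, and leaving out each mouse.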

Additional observations from a re-analysis of the deposited data

How the results depend on the processing

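Of the log2 fold changes of single members under 15 alternatives, 113 kept their side of the threshold, 37 did not, and none changed sign. All 10 members were called with another pseudocount, filter, scaling, no trend or array weights, and 1 with the smooth muscle or the pan-leukocyte score as covariate. Leaving out each mouse gave 4 to 10 members called and 51 to 4018 genes called over all genes, with SASP mouse 3 and BBR mouse 3 at the ends. Over all genes, 608 were called with no filter, 1737 with quantile normalization, 1696 with median-ratio scaling (1044 lower), 7126 with array weights (2490 lower and 4636 higher, against 608 and 461), 18 with the smooth muscle score and 19 with the pan-leukocyte score. The median log2 fold change of the members was -1.75 with the pan-leukocyte score, that of the conjugation genes -1.80 and that of the ADP-ribosylation genes -1.71, and the last was -2.08 with array weights. Without each mouse these medians ran from -2.37 to -2.03, -3.02 to -2.27 and -2.01 to -1.79. The difference in the Isg15 to Usp18 ratio was 0.31 with a pseudocount of 0.1, and -0.59 to -0.060 without each mouse. The cause of these changes was not tested. No paired analysis was possible because the labels give no replicate numbers, and the numbers used here are in accession order. With 3 mice a group and FPKM values alone, depth limits Usp18 most, at about 21 to 40 reads in BBR mice.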
